A study of Mus musculus with 3 samples.

Results

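Heat shock response T cells were 569 of 28452 cells sorted as intratumoral CD8+ T cells whose transcripts held the largest share of 5 stress-inducible genes, *Hspa1a*, *Hspa1b*, *Hspb1*, *Dnajb1* and *Bag3*. They were selected on the summed unique molecular identifiers (UMIs, each standing for 1 captured transcript) of these genes over all UMIs of a cell, and the highest 2% of the cells pooled from 3 libraries were taken as members. The choice was made by measured values, so the levels of the 5 genes in members are given as a description. Beside their score, members carried more *Hsph1*, *Hsp90aa1*, *Dnaja1*, *Jun*, *Klf2*, *Sap30* and *Mt1* in each of the 3 libraries, by 2-fold or more, and no gene was lower by that factor in each of them. *Mt1* rested on a single cell in the sIL-2 library, without which it was no longer 2-fold higher there. *Sap30* reached the lowest level for a call only in members, which favored a higher value.

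The cells were pmel T cells, CD8+ cells with a transgenic receptor for the melanoma antigen gp100 and the congenic marker Thy1.1. They had been activated with gp100 peptide, preconditioned for transfer with 10 nM cytokine, either sIL-2 alone or the IL-2/21-Trikine or both sIL-2 and IL-21, and given on day 5 to C57BL/6J mice that had received 6 Gy and carried B16F10 melanomas. The hosts were Thy1.2+ and were bought at 5 to 6 weeks of age, and the B16F10 tumor is 1 established melanoma line. IL-2/21-Trikine is an engineered protein in which sIL-2, an IL-2 with raised affinity for the IL-2 receptor β chain, is joined to a binder of the IL-21 receptor, so that it engages both receptors. Mice received 4 doses of 2.5 µg, as Trikine in the Trikine group and as sIL-2 in both other groups, so the group labelled sIL-2 + IL-21 differed from sIL-2 in the preconditioning and is called the combination below, with IL-2/21-Trikine shortened to Trikine. On day 18 tumors were minced, dissociated on an automated dissociator and sorted for live Thy1.1+CD8+ cells, so all libraries shared the transgenic donor line, the tumor line, the dissociation and the sort. Cells were not filtered further by T cell markers. Each treatment had 1 library, the number of mice behind a library was not found in the sources used here, and treatment and library cannot be told apart. No test between treatments was therefore possible, and intervals cover counting error only.

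Heat shock proteins are chaperones that bind unfolded or damaged proteins, and their inducible members are switched on by heat shock factor 1 (HSF1) when unfolded protein accumulates. HSF1 binds heat shock elements, inverted repeats of the letters GAA, in the promoters of its target genes. *Hspa1a* and *Hspa1b* encode the inducible HSP70 proteins, *Dnajb1* an HSP40 cochaperone that delivers substrates to HSP70, *Hspb1* the small heat shock protein HSP27, and *Bag3* a nucleotide exchange factor that links HSP70 to autophagy. In T cells, inducible HSP70 is known to follow activation, fever-range temperature and tissue handling as well as protein damage.

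The promoters of members' leading genes are shown because several carry this element. The RefSeq stretches (GRCm38.p6) from 150 bases to 1 base before the annotated start read as follows, 5′ to 3′ on the gene's strand, with capitals marking GAANNTTC or TTCNNGAA, each of which reads the same on both strands. *Hspa1a* lies at chr17:34972157-34972306, *Hspa1b* at chr17:34959239-34959388 and *Jun* at chr4:95052223-95052372, all on the minus strand, as does the first start of *Hsph1* at chr5:149636337-149636486. *Hspb1* lies at chr5:135887769-135887918, the first start of *Dnaja1* at chr4:40722318-40722467 and *Hspe1* at chr1:55087998-55088147, all on the plus strand.
Hspa1a: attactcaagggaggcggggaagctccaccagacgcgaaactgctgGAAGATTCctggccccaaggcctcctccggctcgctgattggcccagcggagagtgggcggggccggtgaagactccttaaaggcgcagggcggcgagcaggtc
Hspa1b: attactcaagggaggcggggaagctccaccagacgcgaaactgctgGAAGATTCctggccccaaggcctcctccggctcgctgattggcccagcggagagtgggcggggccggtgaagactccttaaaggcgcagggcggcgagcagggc
Hspb1: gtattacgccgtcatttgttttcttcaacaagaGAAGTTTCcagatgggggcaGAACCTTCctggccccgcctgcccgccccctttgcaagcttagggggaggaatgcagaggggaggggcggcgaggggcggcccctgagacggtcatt
Hsph1: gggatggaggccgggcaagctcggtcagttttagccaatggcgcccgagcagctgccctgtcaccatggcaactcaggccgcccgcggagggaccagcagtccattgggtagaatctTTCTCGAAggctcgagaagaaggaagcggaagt
Dnaja1: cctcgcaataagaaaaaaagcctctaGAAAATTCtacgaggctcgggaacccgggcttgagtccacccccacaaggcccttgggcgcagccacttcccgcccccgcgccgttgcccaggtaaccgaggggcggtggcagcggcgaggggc
Jun: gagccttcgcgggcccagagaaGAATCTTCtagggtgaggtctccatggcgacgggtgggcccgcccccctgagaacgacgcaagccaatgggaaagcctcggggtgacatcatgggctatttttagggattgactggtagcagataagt
Hspe1: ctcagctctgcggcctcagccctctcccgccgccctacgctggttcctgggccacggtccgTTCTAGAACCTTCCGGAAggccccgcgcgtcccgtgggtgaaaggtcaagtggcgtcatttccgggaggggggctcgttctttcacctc

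The first capital letter stood at -104 in *Hspa1a* and *Hspa1b*, whose windows matched at 149 of 150 bases, at -117 and again at -97 in *Hspb1*, at -33 in *Hsph1*, at -124 in *Dnaja1* and at -128 in *Jun*. In *Hspe1*, overlapping repeats ran from -89, and the second start of *Hspd1*, which is transcribed the other way from the same stretch, held the same bases at -144 and -139. Over the whole 300-base windows, 4 of the 5 score genes held the motif, and *Bag3* held it only after the start, at 42. No match was found in the windows of *Dnajb1*, *Klf2*, *Sap30*, *Mt1* or *Mt2*. The motif stood in 17.0% of the 27025 genes with a promoter entry, and the longer form with 1 more repeat (GAANNTTCNNGAA or TTCNNGAANNTTC, overlapping the shorter) in 0.662%. Of the 7 genes 2-fold higher in members, 6 had an entry, and *Hsph1*, *Jun* and *Dnaja1* held the motif. Among genes with an entry, 5 of 16 that were 1.5-fold higher held it, as did 3 of 12 that were 1.5-fold lower. It stood in 14.6% of the genes tested below. The longer form stood in 0.838% of the tested genes and in 0 of the 5 score genes. It was found in 3 of the 16 higher genes and 0 of the 12 lower ones. These 3 were *Hsph1*, which is also the only one among the 6 called genes with an entry, and *Hspe1* and *Hspd1*, which share a stretch. In *Hsph1* the first start also held the shorter motif after the start, at 36. A match is a description of these letters and not a measured binding site.

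The libraries were sequenced deeply. Within the limits of 2000 to 120000 UMIs and at most 20% mitochondrial UMIs, 7494 cells of the sIL-2 library held 129886211 UMIs, 11524 cells of the Trikine library held 165051207, and 9434 cells of the combination library held 167689133. These limits left out 311, 1826 and 437 cells of the 3 libraries in that order, of which 298, 1817 and 432 had under 2000 UMIs. The median cell had 12290 UMIs among members and 13384 among the other cells with sIL-2, 10917 and 11617 with Trikine, and 16871.5 and 14510 with the combination. Members were therefore a little shallower than their neighbors in 2 libraries and deeper in 1. Their median mitochondrial share was 1.14% against 1.28%, 1.10% against 1.32% and 1.18% against 1.35% in the same order, lower in each library.

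The score was graded and had no gap at the threshold. No UMI of the 5 genes was found in 48.5% of all cells, the median cell stood at 29.0 score UMIs per 1000000 UMIs of the cell, and the 95th and 99th percentiles at 375 and 1334. The last member had 793.55 on this scale (13 of 16382 UMIs) and the first cell outside had 793.23 (15 of 18910 UMIs), with 68 cells within 10% above the threshold and 72 within 10% below it. Members were thus taken from a continuous range of the score, and whether they are a separate cell type was not tested. The median member held 19 score UMIs and the extremes were 2 and 337, with 16 members under 5, while the median of the other cells was 1. UMIs of at least 3 of the 5 genes were present in 78.4% of members and in 3.40% of the other cells, and 20 members owed their score to a single gene.

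**Figure D1:**
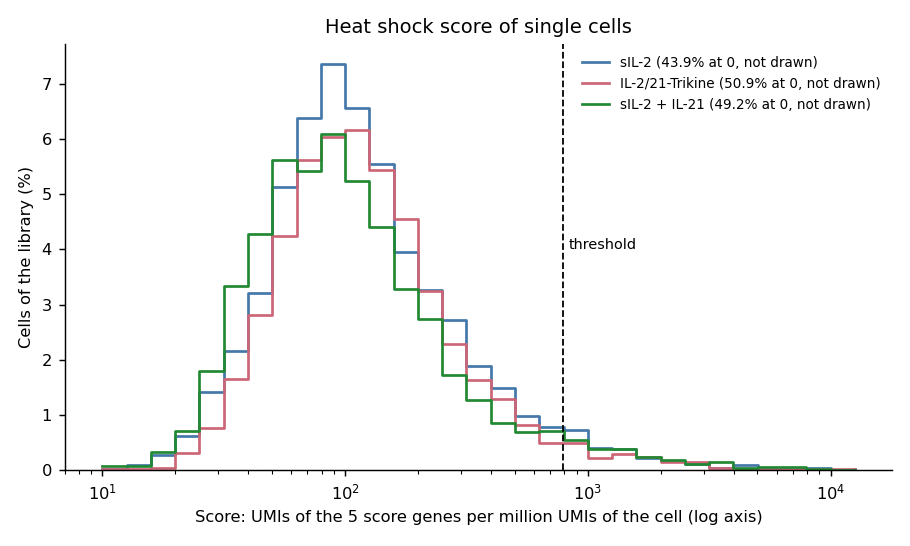
Distribution of the score (x axis, UMIs of the 5 genes per 1000000 UMIs of a cell, log axis) as the percentage of cells of each library (y axis), with cells at 0 left out of the lines and given in the legend. The lines pass the dashed threshold at 793.55 without a gap, and members lie to its right.

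Members were found in all 3 libraries. They were 169 of 7494 cells with sIL-2, 2.26% (95% exact binomial interval 1.93 to 2.62), 194 of 11524 with Trikine, 1.68% (1.46 to 1.94), and 206 of 9434 with the combination, 2.18% (1.90 to 2.499). Trikine gave 0.746 of the share seen for sIL-2 (0.609 to 0.916) and 0.771 of that seen for the combination (0.635 to 0.936), and the shares of the latter libraries stood at a ratio of 1.03 (0.845 to 1.26). The order turned when *Hspa1a* and *Hspa1b* were left out of the score, where the ratio of Trikine to sIL-2 was 1.10 (0.893 to 1.36). It was 0.876 (0.650 to 1.18) with the highest 1% of cells, 0.821 (0.669 to 1.01) without *Hspa1a* alone and 0.856 (0.694 to 1.05) without *Hspa1b* alone, and each of these intervals also held 1. Against the combination the ratio was 0.950 (0.788 to 1.15) without both HSP70 genes, 0.979 (0.865 to 1.11) with the highest 5% of cells as members, 0.898 (0.770 to 1.05) with the score taken after thinning and 0.936 (0.779 to 1.12) with cells down to 500 UMIs, with 1 inside each of these intervals. For sIL-2 over the combination it was 1.26 (1.11 to 1.43) with the highest 5%, 1.19 (1.01 to 1.39) after thinning, 1.25 (1.02 to 1.52) without *Dnajb1* and 0.862 (0.695 to 1.07) without both HSP70 genes, so that the order of these libraries also depended on the score. Ties after thinning made 3.21% of cells members, so the thinned values changed both the depth and the size of the set. For Trikine over sIL-2, with cells down to 500 UMIs, the ratio was 0.909 (0.748 to 1.10). Trikine held 1775 of the 2405 cells this added, the threshold was drawn again over all cells, and the part of each in the change was not tested. Across 5 equal classes of depth within a library the share of members ranged from 1.87% to 2.60% with sIL-2, from 1.17% to 2.21% with Trikine and from 1.43% to 2.91% with the combination. The deepest class held the lowest share in the first 2 libraries, and the class of 8035 to 12032 UMIs did in the third.

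*Hspa1b* gave the most UMIs of the 5 genes in members of each library. Levels are given in counts per 1000000 UMIs (CPM). For the 5 genes the total held all UMIs, and for genes outside the score it left these 5 out. *Hspa1b* stood at 625 in members and 17.7 in the other cells with sIL-2, at 522 and 16.2 with Trikine and at 525 and 9.79 with the combination. A UMI of it was found in 92.9%, 86.6% and 91.3% of members. *Hspa1a* stood at 573 against 8.60, 426 against 8.13 and 512 against 6.37 CPM, with a UMI in 82.2%, 80.4% and 89.8% of members. Both inducible HSP70 genes were therefore above 400 CPM in members and below 20 CPM elsewhere in each library. Reads of the near-identical coding parts of *Hspa1a* and *Hspa1b* are hard to assign. In the GENCODE transcripts 49.3% of the 90-base words of *Hspa1a* also occurred in *Hspa1b*, and 0% of those in its last 500 bases, where a 3′ assay mainly reads.

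*Dnajb1* stood at 390 CPM in members and 44.7 in the other cells with sIL-2, at 516 and 41.3 with Trikine and at 462 and 41.4 with the combination. Unlike the HSP70 genes it was widespread outside, with a UMI in 45.7%, 39.0% and 42.4% of the other cells against 85.2%, 85.1% and 92.2% of members. *Hspb1* was the opposite case. It was found in 13.0%, 25.3% and 24.8% of members and in 0.560%, 0.591% and 1.05% of the other cells, yet the members, 2% of the cells, held 80.2%, 85.2% and 82.1% of all its UMIs. Its level was 158 CPM in members and 0.850 in the other cells with sIL-2, 295 and 0.794 with Trikine, and 319 and 1.57 with the combination, and single members reached 128, 134 and 217 UMIs. *Bag3* was the scarcest at 53.3 against 8.95, 53.9 against 7.21 and 36.9 against 6.46 CPM, with a UMI in 36.1%, 29.9% and 34.0% of members. The score was thus carried by *Hspa1a*, *Hspa1b* and *Dnajb1* in most members, and the median member had 0 UMIs of *Hspb1* and of *Bag3*.

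Each of the 5 genes was next left out in turn, and the highest 2% were chosen by the other 4, so that a gene's own counts did not choose the cells. All 5 stayed higher in the chosen cells of each library. *Hspa1a* was higher by 5.53, 5.26 and 5.81 on the log2 scale with sIL-2, Trikine and the combination, and *Hspa1b* by 4.76, 4.69 and 5.31. When neither HSP70 gene took part in the choice, the values were 4.37, 4.71 and 5.04 for *Hspa1a* and 3.83, 4.16 and 4.57 for *Hspa1b*. *Hspb1* was higher by 5.47, 6.32 and 6.55, *Dnajb1* by 2.49, 3.14 and 3.05 and *Bag3* by 2.33, 2.70 and 2.40. The genes share cells and depth with those that chose the cells, and no test was made.

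**Figure D2:**
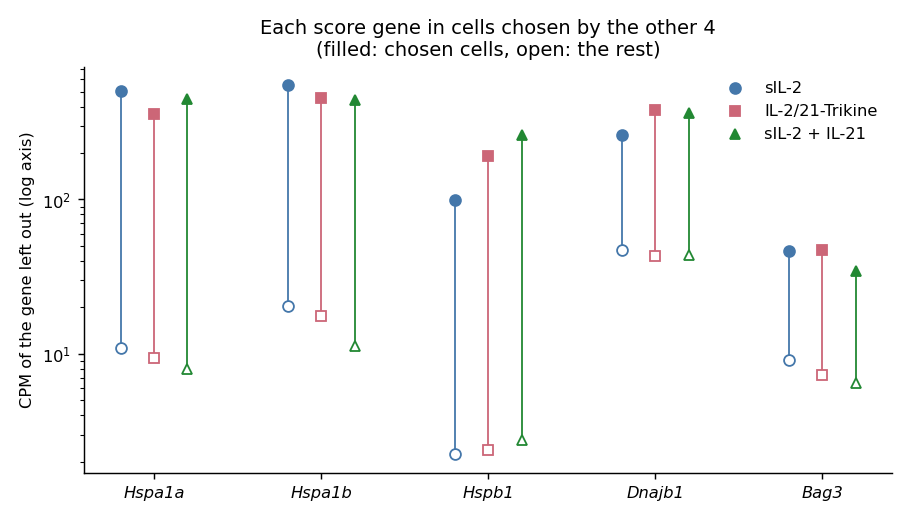
Level of each score gene (y axis, CPM, log axis) in cells chosen as the highest 2% by the other 4 genes (filled) and in the rest (open), for the 3 libraries. In each of the 15 pairs the chosen cells lie above the rest, from 2.33 (*Bag3*, sIL-2) to 6.55 (*Hspb1*, combination) on the log2 scale.

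Members and other cells were then compared across genes outside the score. Of 33696 genes, 2810 reached 50 CPM in members or in the other cells of each library. A gene was called when the members' CPM differed 2-fold or more in the same direction in each library. The calls were 7 genes higher (0.249% of those tested) and 0 lower (0%), and at 1.5-fold 21 higher (0.747%) and 15 lower (0.534%). Within single libraries, 8 genes were 2-fold higher and 2 lower with sIL-2, 20 and 2 with Trikine, and 14 and 39 with the combination. The median gene stood at -0.01, -0.05 and -0.01 on the log2 scale for sIL-2, for Trikine and for the combination, an order which is kept below. The members were chosen from the same cells, so these counts describe what goes with the score and are not tests. Agreement between the 3 libraries does not cover the spread between mice.

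*Hsph1* (ENSMUSG00000029657), which encodes HSP110, the exchange factor of HSP70, had the largest ratio. It stood at 487 CPM in members and 86.9 in the other cells with sIL-2, at 675 and 92.5 with Trikine and at 514 and 71.4 with the combination, log2 ratios of 2.49 (95% counting interval 2.41 to 2.57), 2.87 (2.79 to 2.94) and 2.85 (2.78 to 2.92). At an equal depth of 2000 UMIs a cell, which all cells reached, *Hsph1* was found in 49.1%, 61.3% and 58.7% of members and in 13.6%, 15.2% and 11.7% of the other cells. Without thinning the shares were 87.0%, 93.8% and 93.2% against 55.6%, 53.7% and 51.0%. The share of cells with a UMI follows the level, so both describe the same difference.

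*Hsp90aa1*, the inducible form of HSP90, stood at 1811 CPM against 667, 2562 against 775 and 2269 against 751, log2 ratios of 1.44, 1.73 and 1.60. Its constitutive counterpart *Hsp90ab1* was at 2541 against 1850, 2678 against 1987 and 3224 against 2112, log2 ratios of 0.46, 0.43 and 0.61. *Dnaja1*, an HSP40 that works with constitutive HSP70, stood at 1033 against 496, 1386 against 580 and 941 against 455 CPM, log2 ratios of 1.06, 1.26 and 1.05. *Hspa8*, constitutive HSP70, stood at 1540 against 1094, 1759 against 1035 and 1422 against 913 CPM, log2 ratios of 0.49, 0.76 and 0.64, and was not called. Inducible *Hsp90aa1* thus stood further above the other cells than constitutive *Hsp90ab1* in each library.

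Of the listed HSP70 and HSP40 genes outside the score, 13 of 22 were tested, with medians of 0.11, 0.10 and 0.27 on the log2 scale. Among them 2 were called higher (*Hsph1* and *Dnaja1*) and 0 lower, against 0.249% and 0% of all tested genes. *Hspa4l*, an HSP110 relative, varied most between libraries among the tested genes of this list, at 0.43, 1.53 and 1.04. *Dnajb4* stood at 0.85, 0.73 and 0.42, whereas *Hspa4* stayed at 0.11, 0.10 and 0.27. In the other cells *Hspa4l* was below 50 CPM in each library and *Dnajb4* with sIL-2 and Trikine, so both were tested through their level in members, which favored a higher value. *Dnaja4*, an HSP40, was below the lowest level for a call, at 19.2, 22.6 and 16.2 CPM in members and 3.81, 4.04 and 3.09 in the other cells, log2 ratios of 2.34, 2.49 and 2.39. *Zfand2a*, a stress-induced proteasome adaptor, was likewise too low, at 16.0, 16.7 and 16.2 CPM against 4.37, 4.43 and 4.06, log2 ratios of 1.87, 1.91 and 2.00. *Hspa4l*, *Dnajb4*, *Hspa4*, *Dnaja4* and *Zfand2a* were singled out after their values were seen.

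In the HSP90 list, 11 of 14 genes were tested, 1 was called higher (*Hsp90aa1*), and 7 were higher in all 3 libraries, as were 24.4% of all tested genes, with medians of 0.44, 0.29 and 0.33. Among its cochaperones *Ahsa1*, which activates the HSP90 ATPase and was likewise below 50 CPM in the other cells of each library, stood at 0.44, 0.70 and 0.71, *Cacybp* at 0.46, 0.62 and 0.43 and *Fkbp4* at 0.47, 0.27 and 0.41. Of 8 mitochondrial chaperones 4 were tested, and 0.249% of all tested genes were called higher at 2-fold and 0.747% at 1.5-fold. Among the 4, 0 were called at 2-fold and 2 at 1.5-fold. These were *Hspe1* (HSP10), at 950 against 487, 1390 against 688 and 1111 against 559 CPM, and *Hspd1* (HSP60), at 540 against 316, 689 against 415 and 612 against 351 CPM, the pair that forms the chaperonin of the matrix and shares the promoter stretch shown above. Their log2 ratios were 0.96, 1.01 and 0.99 for *Hspe1* and 0.77, 0.73 and 0.80 for *Hspd1*, while *Hspa9*, the matrix HSP70, stood at -0.08, 0.08 and 0.33. The cytosolic chaperonin TRiC had 0 of 8 genes called, where 0.249% of all tested genes were called higher. Its medians were near 0, 0 and 0.18, with its most abundant gene *Cct2* at -0.01, 0.12 and 0.27.

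Chaperones of the endoplasmic reticulum gave no calls, near the 0.249% of all tested genes called higher and the 0% called lower. Of 16 genes for its chaperones and the unfolded protein response 13 were tested and 0 were called, with medians of 0.03, -0.30 and 0.01. The most abundant, *Hspa5*, encoding the reticulum's HSP70 BiP, stood at 836 CPM in members and 895 in the other cells with sIL-2, at 762 and 827 with Trikine and at 694 and 792 with the combination. Small heat shock proteins other than *Hspb1* had 0 of 6 genes at the lowest level, and *Hspb7* and *Hspb8* had no UMI in members. Of the heat shock factor list no factor reached the lowest level, and only *Hsbp1*, a factor-binding inhibitor, was tested, at -0.08, -0.10 and -0.12, and *Hsf1* itself was at 25.1, 18.7 and 20.2 CPM in members and 22.4, 19.7 and 17.0 in the other cells.

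**Figure D3:**
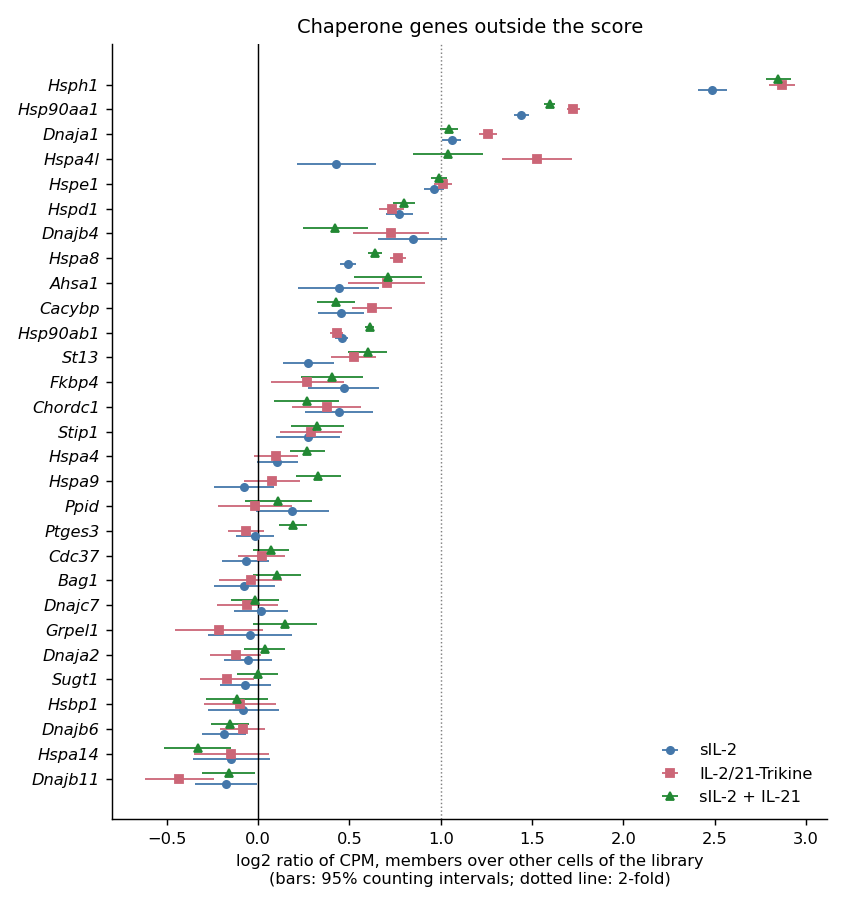
Log2 ratio of CPM in members over the other cells (x axis, bars 95% counting intervals) for the 29 tested genes of the chaperone lists for HSP70 and HSP40, HSP90, mitochondria and heat shock factors, by library. *Hsph1*, *Hsp90aa1* and *Dnaja1* lie beyond the dotted 2-fold line in all 3 libraries, and *Dnajb11*, the lowest on average, lies at -0.17, -0.43 and -0.16.

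The called genes outside the chaperones were *Jun*, *Klf2*, *Sap30* and *Mt1*. *Jun*, an AP-1 subunit of the immediate early response, stood at 210 CPM in members against 70.8, 209 against 66.6 and 221 against 69.8, log2 ratios of 1.57, 1.65 and 1.66. *Klf2*, a transcription factor of quiescence and lymphocyte trafficking, stood at 242 against 94.0, 375 against 109 and 212 against 72.2, log2 ratios of 1.36, 1.78 and 1.55. *Sap30*, a subunit of the Sin3 histone deacetylase complex, stood at 101 against 41.2, 98.5 against 37.5 and 120 against 45.1, log2 ratios of 1.29, 1.39 and 1.41. *Sap30* was below 50 CPM in the other cells of each library and was tested only because of its level in members, so that its direction was favored by the limit.

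*Mt1*, a metallothionein that binds zinc and other metals, stood at 406 against 200, 660 against 186 and 2753 against 973 CPM, log2 ratios of 1.02, 1.83 and 1.501, and *Mt2* at 214 against 114, 307 against 88.4 and 1505 against 515. Single cells decided part of this. With sIL-2, 1 cell held 41.5% of the members' *Mt1* UMIs, and with Trikine 29.7%. Without the member richest in *Mt1* in each library, members stood at 242, 472 and 2665 CPM, log2 ratios of 0.28, 1.34 and 1.45, so that the call was lost with sIL-2. The other 6 called genes stayed above 2-fold when their own richest members were left out in the same way. The highest 2% of cells by *Mt1* and *Mt2* together, drawn from the same pooled cells, included 61 members, 10.7% of each set, and 1.82% of the other cells. By library they were 1 of 169 members (0.592%) with sIL-2, 5 of 194 (2.58%) with Trikine and 55 of 206 (26.7%) with the combination, against 0.382%, 0.380% and 4.74% of the other cells. Without these cells 6 genes were called, all of them among the 7, and *Mt1* no longer was. The 2 sets therefore overlapped mainly in the combination library, which also held 492 of the 569 cells highest in metallothionein.

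*Jun* was called and the other tested genes of its class were not, and the difference between them was not tested. Of 16 immediate early genes, which are also known to respond to tissue dissociation, 12 were tested, *Jun* was called, and at 1.5-fold *Junb* was lower. Over all tested genes 0.249% were called higher, and 0.534% were lower at 1.5-fold. *Junb* stood at 764 CPM against 1325, 568 against 920 and 538 against 957, log2 ratios of -0.79, -0.70 and -0.83. *Fos* stood at 247 against 96.9, 202 against 95.7 and 111 against 120, so that it was higher in 2 libraries and not in the third, and *Jund*, the most abundant, stood at -0.24, -0.26 and -0.17 on the log2 scale. All cells went through the same kind of dissociation, and the part of tissue handling in the score was not tested.

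Further genes past 1.5-fold in each library were chosen for naming after their values were seen. Higher were *Rgs1*, a regulator of chemokine receptor signaling, at 0.80, 1.11 and 0.62 on the log2 scale, and *Ddit4*, an mTORC1 inhibitor, at 0.68, 1.11 and 0.98. *Slc2a1*, the glucose transporter GLUT1, which was below 50 CPM in the other cells with Trikine and the combination, stood at 0.68, 0.92 and 0.66 and *P4ha1*, a hypoxia-induced prolyl hydroxylase, at 0.65, 1.12 and 0.66. Of the glycolysis and hypoxia list 9 of 14 genes were tested, 0 were called at 2-fold, and 8 were higher in all 3 libraries, with *Gapdh* at 0.18, 0.35 and 0.51. Over all tested genes 24.4% were higher and 31.4% lower in all 3 libraries.

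The 15 lower genes included *Il2ra* and *Il21r*. *Il2ra*, the high-affinity IL-2 receptor chain, stood at 235 CPM in members against 397 with sIL-2, 188 against 284 with Trikine and 208 against 316 with the combination, log2 ratios of -0.76, -0.60 and -0.60. *Il21r*, the IL-21 receptor, stood at 94.0 against 157, 79.1 against 127 and 72.9 against 110 CPM, log2 ratios of -0.74, -0.69 and -0.60. The chains that IL-2 signals through were nearer to the other cells, with *Il2rb* at -0.24, -0.30 and -0.43 and *Il2rg*, which both receptors share, at 0.02, -0.12 and -0.43. No list of receptors had been set, and these 4 genes do not stand for cytokine receptors as a group. *Ccr7*, the lymph node homing receptor, stood at -0.69, -0.70 and -1.22, *Gadd45b* at -0.81, -0.65 and -1.10, *Kdm6b*, a histone demethylase that was below 50 CPM in members with the combination, at -0.84, -0.95 and -1.79, and *Bcl2a1d*, an antiapoptotic BCL2 relative, at -0.77, -0.95 and -1.17. Reads of *Bcl2a1d* can be shared with its near-identical copies.

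The score was followed below the threshold by splitting each library's cells into 7 classes by the pooled percentile of the score. *Hsph1* stood at 67.8 CPM in the lowest 50% of cells with sIL-2 and at 84.4, 104, 136, 207, 366 and 631 CPM in the next 6 classes, so that it was higher in each class than in the one before, well below the members' range. With Trikine it went from 76.9 to 872 CPM and with the combination from 56.2 to 605, also without a step back. *Hsp90aa1* went from 570 to 2253, from 675 to 3096 and from 648 to 2384 CPM. *Dnaja1* stayed between 439 and 766 CPM in the lower 5 classes of the 3 libraries and reached 1378, 1716 and 1133 in the top 1%. *Jun* went from 58.9 to 242, from 55.3 to 254 and from 62.8 to 264. *Junb* stood at 1367, 959 and 1013 CPM in the lowest class and at 876, 519 and 547 in the highest. The classes were made from the same cells and are described without a test.

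**Figure D4:**
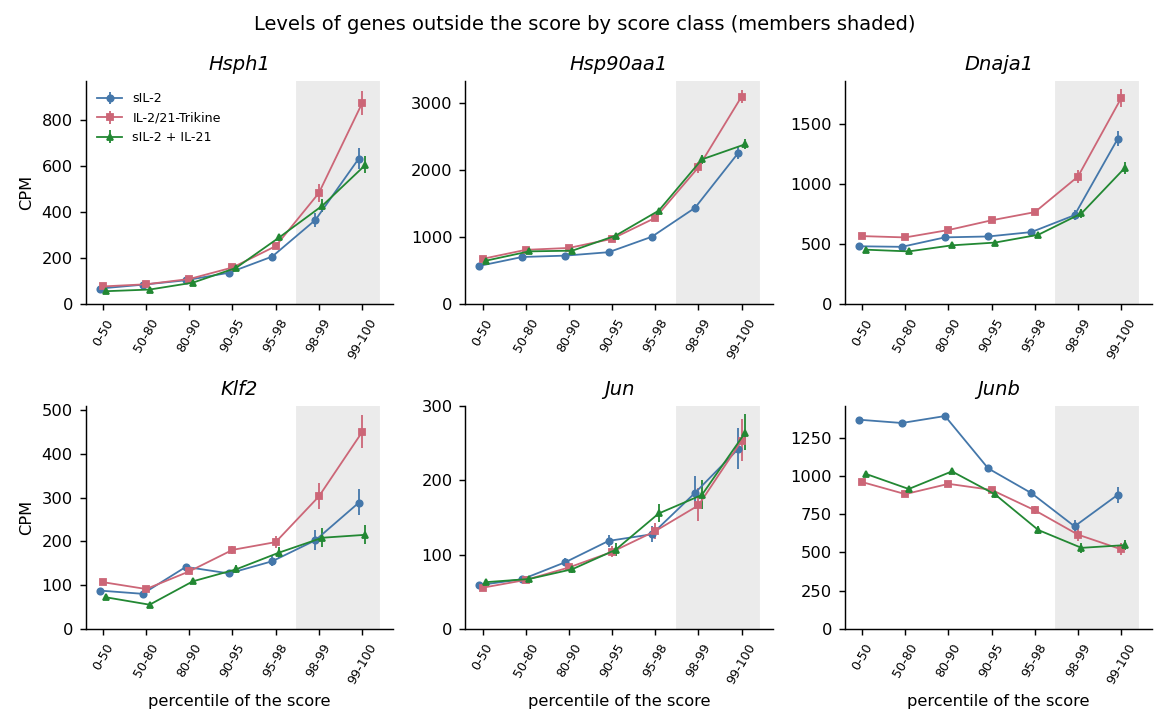
CPM (y axes, from 0) of 6 genes outside the score in 7 classes of cells by percentile of the score (x axes), with 95% counting intervals, for the 3 libraries. *Hsph1* and *Hsp90aa1* are higher in each class than in the one before in all 3 libraries, *Dnaja1* departs mainly in the shaded member classes, and *Junb* is lower in both member classes than in the lowest class.

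UMIs of the T cell identity list were present in 100% of members in each library and in all but 2 of the other cells. However, 8 of its 10 genes were lower in members in all 3 libraries, as were 31.4% of all tested genes. The list's medians were -0.10, -0.18 and -0.41. *Cd8a* stood at 325 CPM against 373, 276 against 314 and 153 against 234, and *Trac* at 861 against 962, 650 against 798 and 450 against 686. Markers of other cells were compared as shares of cells with a UMI. Myeloid markers, most abundantly *Fcer1g*, were found in 37.9% of members and 36.8% of the other cells with sIL-2, in 24.7% and 19.2% with Trikine and in 45.1% and 44.4% with the combination, with *Csf1r*, *C1qb* and *Adgre1* at 0 in members. B cell markers were found in 4.73%, 1.55% and 1.94% of members and 3.60%, 2.71% and 2.94% of the other cells, melanoma markers in 3.55%, 4.64% and 4.37% against 3.17%, 3.68% and 3.02%, and NK cell markers in 3.55%, 5.67% and 9.22% against 5.43%, 4.37% and 9.03%. Endothelial markers, mainly *Pecam1*, were found in 40.2%, 24.7% and 28.2% of members against 42.6%, 36.5% and 37.0%. CD4 and regulatory T cell markers were found in 1 member of each library, and 5 or more of their UMIs in 0 members and in 19, 4 and 9 of the other cells. Fibroblast markers were found in 0 members, and erythroid markers in 1 member with sIL-2 and 0 with the others, although 1 of the other cells with sIL-2 held 5 or more of the 8939 erythroid UMIs found there. For 0 of 169, 194 and 206 members the upper exact limits on the share of cells with a UMI were 2.16%, 1.88% and 1.77%, which do not limit the share of cells that express a marker.

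Gene lists for T cell states were set beside all tested genes, of which 0.249% were called higher and 0% lower. Of the cytotoxic list 8 of 10 genes were tested and 0 called, and *Gzmb* stood at -0.07, 0.11 and 0.30. Of the inhibitory receptors 5 of 9 were tested and 0 called, with *Ctla4* at -0.13, 0.11 and -0.07. Of the stem and memory list 7 of 12 were tested, *Klf2* was called higher, and *Bach2*, the most abundant, stood at -0.26, -0.57 and -1.18. The S phase list (6 of 12 tested, 0 called) had medians of -0.07, -0.26 and 0.24 and its most abundant gene *Dut* stood at -0.07, -0.17 and 0.23, while the G2 and mitosis list (9 of 14 tested, 0 called) had -0.19, 0.08 and 0.04, with *Top2a* at -0.39, 0.08 and 0.21.

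Stress lists outside the chaperones gave no 2-fold calls apart from *Jun* and *Mt1*. Over all tested genes 0.249% were called higher and 0% lower, so counts of 0 in short lists do not set them apart. The ubiquitin and proteasome list had 0 of 13 tested genes called, with *Ubb* at 0.37, 0.55 and 0.28. The integrated stress response list had 0 of 5 called, with medians of 0.23, 0.60 and 0.04 and *Slc3a2* at 0.14, 0.36 and 0.04. The oxidative stress list had 0 of 3 called, with *Txn1* at 0.07, 0.12 and 0.29, and the p53 list 0 of 5, with *Bax* at -0.22, -0.23 and -0.28. Of the nuclear retained RNAs *Malat1* stood at 0.22, 0.26 and -0.14. Genes named as ribosomal proteins were slightly higher, 73 of 83 in all 3 libraries, as were 24.4% of all tested genes. Their medians were 0.05, 0.07 and 0.10, with *Rps15a* the most abundant at 0.07, 0.12 and 0.06. Of 12 mitochondrial genes 10 were lower in all 3 libraries, as were 31.4% of all tested genes. Their medians were -0.22, -0.45 and -0.36, although the most abundant, *mt-Co1*, stood at 0.07, 0.15 and 0.12.

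**Figure D5:**
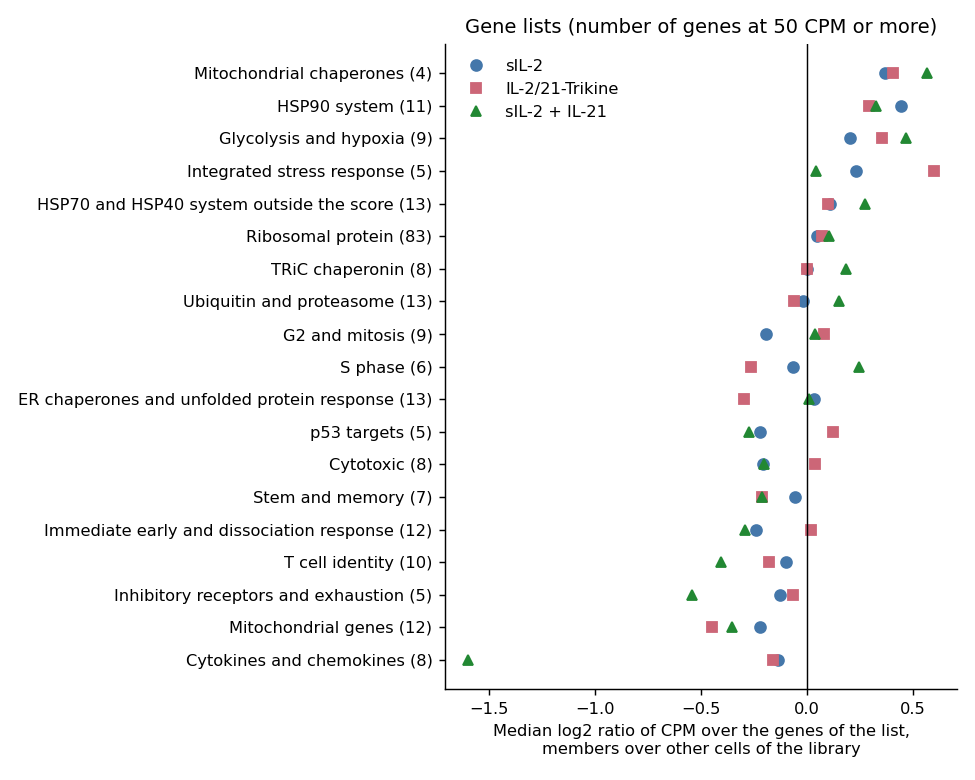
Median log2 ratio of CPM in members over the other cells (x axis) for gene lists with at least 4 tested genes, number of genes in brackets, by library. Averaged over libraries, mitochondrial chaperones and the HSP90 list lie highest, with values between 0.29 and 0.57, and cytokines and chemokines in the combination library lie lowest, at -1.60.

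Among the list medians against the other cells, that of cytokines and chemokines differed most between libraries. Of 8 tested genes of that list 5 were lower than in the other cells in all 3 libraries, as were 31.4% of all tested genes. Calls numbered 0, where 0.249% of all tested genes were called higher and 0% lower. The list's medians were -0.14 and -0.16 with sIL-2 and Trikine and -1.60 with the combination. Summed over the list, the median cell had 4467 CPM among members and 5870 among the other cells with sIL-2, 3579 and 3426 with Trikine, and 1737 and 2798 with the combination. The most abundant, *Xcl1*, a chemokine that draws cross-presenting dendritic cells, stood at 3750 CPM in members against 4294, 2643 against 4338 and 971 against 2960. Without the cells highest in metallothionein, the median of the list with the combination was -1.41 over 151 members, so that most of the difference remained.

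To compare members between libraries, each ratio between 2 libraries was set beside the same ratio in the other cells, since libraries differ in all cells. For Trikine over sIL-2, 3183 genes were compared, and the members' log2 ratio was at least 1 above that of the other cells for 4 genes (0.126%) and at least 1 below for 2 (0.0628%). For Trikine over the combination the counts were 9 (0.291%) and 1 (0.0323%) of 3092, and for sIL-2 over the combination they were 21 (0.634%) and 1 (0.0302%) of 3310. With each cell weighted equally they were 7 and 7, 11 and 3, and 50 and 4 in the same order of pairs. With the highest 2% taken within each library they were 2 and 1, 15 and 1, and 30 and 0. The pairs share libraries and are not independent. A gene was compared when it reached 50 CPM in members of either library, so a gene that did so in members of 1 library only was favored in that direction.

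*Ccl4*, encoding the chemokine MIP-1β, stood at 2833, 1964 and 457 CPM in members with sIL-2, Trikine and the combination, and at 2748, 2260 and 1926 CPM in the other cells. *Ccl3*, encoding MIP-1α, stood at 1009, 701 and 208 CPM in members and 1185, 880 and 897 in the other cells. Both were several-fold lower in members of the combination library than in members of the others, and the other cells differed less, by 0.51 on the log2 scale for *Ccl4* and 0.40 for *Ccl3* between sIL-2 and the combination. Of the members' UMIs with Trikine, 1 cell held 22.2% for *Ccl4* and 1 cell held 16.2% for *Ccl3*. Without the member richest in the gene in each library, *Ccl4* stood at 2542, 1550 and 406 CPM and *Ccl3* at 877, 596 and 196. The combination thus stayed lowest for both genes. *Ifng*, encoding interferon-γ, stood at 461, 659 and 224 CPM in members and 885, 621 and 676 in the other cells. In the Trikine library 1 cell held 26.2% of the members' *Ifng* UMIs. Without the member richest in *Ifng* in each library the levels were 389, 490.2 and 198 CPM, below the other cells in all 3. *Ccl1* stood at 1776, 547 and 276 CPM in members and 1832, 1346 and 1216 in the other cells, and 1 cell held 20.1%, 29.0% and 17.7% of its UMIs in members.

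The largest differences in the other direction, which the rule picked for their size, included several genes of the cell cycle. Of these *Mcm2*, *Tk1*, *Kif11*, *Atad5* and *Ncapd2*, and of the others *Idi1*, reached 50 CPM in members of the combination library but not in members of the library compared with it, so that their direction was favored by the limit. *Mcm2*, a helicase subunit of DNA replication, stood at 27.4 CPM in members with Trikine and 51.3 with the combination, and at 36.6 and 37.1 in the other cells. *Tk1*, thymidine kinase, stood at 15.2 with sIL-2 and 52.6 with the combination, against 23.8 and 44.8 in the other cells, and *Kif11*, a mitotic motor, at 32.7 and 83.7 against 48.4 and 68.2. *Atad5* and *Ncapd2*, for replication and chromosome condensation, stood at 17.8 and 60.5 and at 18.5 and 55.1 CPM in members of these libraries, against 26.2 and 43.8 and against 25.4 and 39.9 in the other cells. *Fabp5*, a fatty acid binding protein, stood at 94.2 with Trikine and 319 with the combination, against 118 and 194, and *Idi1*, of sterol synthesis, at 49.3 and 165 against 55.5 and 97.5. These genes do not stand for the cell cycle as a whole. The S phase and the G2 and mitosis lists had medians of 0.24 and 0.04 with the combination, and of 0.31 and -0.14 without the cells highest in metallothionein. Members of the combination library were also deeper, with a median of 16871.5 UMIs, and the part of depth was not tested.

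The remaining genes named by the same rule were low or uneven, and *Id3*, *Egr3*, *Aff3*, *Pou2f2*, *Dscam* and *Cfap298* reached 50 CPM in members of only 1 library of each pair, so that their direction was favored by the limit. *Id3*, a memory-associated inhibitor of E proteins, stood at 56.0 CPM in members with Trikine and 12.7 with sIL-2, against 7.69 and 3.97 in the other cells. *Hspa4l* stood at 91.8 and 63.9 against 31.8 and 47.5. *Gzmf*, a granzyme, stood at 300.4 and 337 against 227 and 643, with 28.2% and 34.2% of its UMIs in 1 cell. *Pou2f2* stood at 88.6, 28.6 and 9.45 CPM in members with sIL-2, Trikine and the combination, against 79.1, 49.5 and 30.1. *Egr3* stood at 16.7 with Trikine and 53.4 with sIL-2 against 29.9 and 46.2, and *Aff3* at 35.8 and 73.0 against 73.1 and 75.9. *Dscam* stood at 57.6 with Trikine and 25.9 with the combination against 29.3 and 47.8, and *Cfap298* at 25.4 and 53.2 against 37.8 and 43.5.

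Differences between libraries were also computed for the 3 called chaperones. For Trikine over sIL-2, the log2 ratio in members exceeded that in the other cells by 0.38 (0.27 to 0.49) for *Hsph1*, by 0.28 (0.23 to 0.34) for *Hsp90aa1* and by 0.20 (0.13 to 0.27) for *Dnaja1*. For Trikine over the combination the differences were 0.02 (-0.08 to 0.12), 0.13 (0.08 to 0.18) and 0.21 (0.14 to 0.28), and for sIL-2 over the combination -0.36 (-0.47 to -0.25), -0.16 (-0.21 to -0.10) and 0.01 (-0.06 to 0.09). *Jun* differed by 0.08 (-0.09 to 0.26), -0.01 (-0.17 to 0.15) and -0.09 (-0.25 to 0.06) in the same pairs. The intervals hold counting error only, and the spread between mice is not in them.

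Cell barcodes were shared by few cells. Of the cells within the limits, 25 barcodes occurred in both the Trikine and sIL-2 libraries, 30 in Trikine and the combination, and 17 in sIL-2 and the combination. Among these 72, 5 belonged to a member in 1 library and 0 to a member in both.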

How the data were processed

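The authors' deposited matrices hold unnormalized UMI counts of 33696 genes, made with Cell Ranger 9.0.0 per the file headers and limited to called cells. The study's methods name a GRCm39 reference with intronic reads, whereas the submitters' processing notes list mm10. Counts from 31026 cells were limited by UMIs and mitochondrial share as given above, and UMIs were summed over members and over the other cells of each library. They were expressed as CPM, with the 5 score genes left out of the total except for the levels of these 5 genes themselves. Intervals were exact binomial or Poisson, and log-normal for ratios. Members and lists were chosen with earlier results of these data known. Named genes were the score genes, called chaperones, the most abundant gene of each other list, the called genes with the ratio nearest to 0 largest, and the 4 largest and 4 smallest differences for each pair of libraries among genes at 50 CPM with UMIs in 10% of members; some items that this rule or the lists cover are not reported here. No doublet caller was run; the 120000 UMI limit and a repeat without the 5% deepest cells stood in its place. Ratios and calls were checked on simulated counts. Python 3 with numpy, scipy, pandas and matplotlib was used.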

Additional observations from a re-analysis of the deposited data

Results flagged for a closer look

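Cells with at least 500 and under 2000 UMIs, which the comparisons left out, reached the threshold of the score in 116 of 2405 cases (4.82%). At such a depth 1 or 2 UMIs of the score genes suffice, and UMIs of these genes were found in 26 of 266 such cells with sIL-2, 117 of 1775 with Trikine and 27 of 364 with the combination.

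Among the genes named for the largest differences between libraries, 8 had members higher than the other cells in 1 library and lower in another, each by at least 1.2-fold. The difference was not tested, since each treatment had 1 library. *Dscam*, *Mcm2*, *Cfap298*, *Atad5*, *Ncapd2* and *Kif11* were compared only because members of 1 library reached 50 CPM, which favored a high value there. *Gzmf* differed by 1.34 on the log2 scale between Trikine and sIL-2, and without the member richest in it in each library its members stood at -0.05 against the other cells with Trikine, so that they were no longer higher. Between Trikine and the combination, *Dscam* differed by 1.86, *Fabp5* by -1.04, *Mcm2* by -0.89 and *Cfap298* by -0.86. Between sIL-2 and the combination, *Atad5* differed by -1.02, *Ncapd2* by -0.92 and *Kif11* by -0.86.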

How the results depend on the processing

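The 7 genes called higher numbered between 3 and 12 under the alternatives that kept the 2-fold call and a lowest level, and the number lower was between 0 and 2. With the highest 1% of cells as members 12 were higher and 2 lower, and with the highest 5% 3 were higher (all 3 among the 7). With no lowest level apart from 1 UMI 114 were higher and 19 lower, and at 1.5-fold 21 and 15. With each cell weighted equally or without the 5% of cells with most UMIs 1 gene was lower. Leaving out 1 library in turn, a choice made after seeing the data like that of members with UMIs of 3 or more score genes and that without metallothionein-high cells, gave 7 to 12 genes higher and 0 to 2 lower, with 12 and 2 without the sIL-2 library. Over 18 repeats, which include leaving out the member of each library richest in the gene (also chosen after seeing the data), *Mt1* was below 2-fold in 5, and *Dnaja1*, *Hsp90aa1* and *Sap30* in 1 each.

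The mean log2 ratios of genes left out of the score were 5.83 (*Hspa1a*), 6.74 (*Hspb1*), 3.34 (*Dnajb1*) and 2.97 (*Bag3*) with the highest 1% and 4.52 (*Hspa1b*), 5.22 (*Hspb1*), 2.32 (*Dnajb1*) and 1.83 (*Bag3*) with the highest 5%. With 5% the list medians, averaged over libraries, were 0.24 for HSP90 and 0.28 for mitochondrial chaperones, and the latter was 0.58 with each cell weighted equally. *Hsbp1*, the 1 tested gene of the heat shock factor list, stood at -0.052 with 1%, at -0.047 with 5%, at -0.071 with equal weights and at -0.13 in members with 3 or more score genes. The ratio of member shares of Trikine to sIL-2 was 1.10 without *Hspa1a* and *Hspa1b* in the score, on the other side of 1, and that of Trikine to the combination was 0.950 then and 0.979 with the highest 5%. The causes were not tested.

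With the highest 2% taken within each library, genes above and below numbered 2 and 1 for Trikine over sIL-2, 15 were above for Trikine over the combination, and 0 were below for sIL-2 over the combination. With equal weights there were 7 above and 7 below, 3 below, and 50 above and 4 below, in the same order of pairs. Of 137 repeats of these results 99 kept the value within the limits set for a move. A value within these limits need not keep its order. The ratio of member shares of sIL-2 to the combination stayed within them in all 14 of its repeats, yet ranged from 0.862 to 1.26. After thinning to 2000 UMIs, 912 cells held 2 or more score UMIs, and a share of 2% could not be taken because 525 cells tied at 2. No paired analysis was possible because each treatment had 1 library.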
